A study of Mus musculus with 18 samples.

Results

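Gene expression of mouse embryonic stem cells (ESCs) with and without OHT, given to delete their own Hdac1 and Hdac2, was measured in the line rescued with wild-type HDAC1 (HDAC1-WT). The comparison sets the 3 libraries labelled HDAC1-WT, OHT treated, against the 3 labelled HDAC1-WT, untreated, chosen by their titles alone, which makes 6 of the 18 RNA-seq libraries in the series. OHT is 4-hydroxytamoxifen, which is used to trigger recombination of the floxed genes in these cells. Every gene was considered, and 18791 genes had enough counts to be tested.

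All cells were ES-E14TG2a ESCs with floxed alleles (Hdac1/2 lox/lox), grown with leukaemia inhibitory factor, and all lines carried a stably integrated HDAC1-Flag construct. The untreated HDAC1-WT cells therefore held the intact endogenous Hdac1 and Hdac2 as well as the wild-type transgene, and OHT was given to remove the endogenous genes and leave the transgene. The other 2 lines carried HDAC1-E63R or HDAC1-Y48E, point mutants of residues on the HDAC1 surface, each again untreated and OHT treated with 3 libraries per group. The dose was 1 µM OHT. The labels give 5 days of treatment, and the study's methods give 24 h with OHT followed by 4 days of further culture. Each construct is represented by 1 line made by piggyBac transposition, so copy number and insertion sites are particular to the line, and the sources used here do not say whether it was a clone or a pool. No rescue-free line and no OHT-treated line without floxed alleles was analysed here, so effects of OHT itself and of the deletion cannot be told apart. The study describes the 3 libraries of a group as biological replicates.

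HDAC1 and HDAC2 are closely related histone deacetylases that remove acetyl groups from lysines of histone tails. They work as the catalytic subunits of multiprotein corepressor complexes (NuRD, SIN3, RERE, CoREST, MIER and MiDAC), which bring them to promoters and enhancers. In ESCs either enzyme can largely stand in for the other, while loss of both is lethal to the cells, which is why a rescue construct is needed to follow them over several days.

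The HDAC1-WT libraries held between 10206600 and 11402694 counts on genes (median 11045541), so that the floor of 3 counts, which a count of 0 still allows, stood at 0.265 to 0.300 normalised CPM (counts scaled to 1e+06 per library). The floor takes in counting error alone, since no molecular identifiers marked PCR copies. The ESC markers Pou5f1, Nanog, Sox2, Zfp42, Esrrb, Dppa5a, Tdgf1 and Utf1 summed to between 7803 and 7970 CPM in untreated and between 8177 and 9014 CPM in OHT-treated HDAC1-WT libraries. Summed markers of fibroblasts, which are often used as feeder cells, were between 43.4 and 49.6 CPM untreated and between 62.2 and 66.1 CPM after OHT, with 2 of the 8 markers, Lum and Dcn, at 0 in all 6 libraries. Of the others, Thy1 ran from 14.9 to 19 CPM untreated and from 26.7 to 36.6 after OHT, the widest shift of the 8, Pdgfrb from 18.2 to 25.4 and from 24.2 to 27.2, and Col1a1 from 5.71 to 8.56 and from 5.21 to 10.6. Col1a2, Col3a1 and Postn were at most 2.4 CPM, and the part of these cells in any result was not tested. Primitive endoderm and trophoblast markers summed to at most 43.6 and 14.7 CPM. A library outside the HDAC1-WT line, HDAC1-E63R untreated replicate 3, stood apart from its replicates, with a chi-square per degree of freedom of 55.1 and 61.1 against them, where the other pairs of replicates in the series lay between 3.36 and 7.07. Because one estimate of the spread was shared by all 18 libraries, the results are given with all 18 and without this library (17 libraries). The common biological coefficient of variation was 0.177 with 18 libraries, 0.124 with 17 and 0.133 with the 6 HDAC1-WT libraries alone.

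The targeted genes were examined first. Hdac1 lies at chr4:129516104-129542713, minus strand, and Hdac2 at chr10:36974544-37001889, plus strand, positions here and in what follows being those of GENCODE M21 on mm10. Hdac1 counts per library were 2188, 2215 and 2104 in the untreated and 1751, 1911 and 2024 in the OHT-treated HDAC1-WT cells. All 3 OHT-treated libraries were below the untreated ones, but the change was small, with a log2 fold change of -0.24 ± 0.09 (SE) and an edgeR quasi-likelihood adjusted p of 0.344 with 18 libraries and 0.041 with 17. The gene count does not separate the endogenous allele from the transgene, and 31.7% of the 50-base stretches of the Hdac1 exons also occur in Gm10093, so Hdac1 counts do not check the deletion.

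Hdac2, for which no construct was supplied, had 2237, 1861 and 2084 counts in the untreated and 1167, 1386 and 1502 in the OHT-treated libraries. The groups did not overlap, and The mean went from 195 ± 22.9 to 124 ± 10.3 CPM (SD, n = 3 each). The log2 fold change was -0.66 ± 0.11 (SE), with an adjusted p of 0.0125 by edgeR with 18 libraries, which misses the limit of 0.01, and of 1.45e-07 with 17, 2.82e-05 with the 6 HDAC1-WT libraries and 4.24e-05 by DESeq2. Transcripts of the gene were thus still counted after OHT in all 3 libraries. Counts per gene do not show which exons those reads cover, so the extent of deletion was not tested. Per kilobase of exon, Hdac1 lay at 59.5 and Hdac2 at 43.6 CPM before OHT, and at 50.4 and 27.6 CPM after it.

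The other class I enzymes did not pass the test. Hdac3, the catalytic subunit of the NCoR/SMRT complex, went from 45.4 ± 0.479 to 54.2 ± 4.93 CPM and Hdac8 from 6.17 ± 2.14 to 5.82 ± 0.599 CPM (SD, n = 3). Of 7 tested class II and IV deacetylases none passed with 18 or 17 libraries.

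Few genes passed the limits after OHT in the presence of HDAC1-WT, and how many did so depended on the libraries in the fit. A gene that misses the limits is not thereby shown to be unchanged. With all 18 libraries, 10 of 18791 tested genes (0.0532%) were differentially expressed genes (DEGs), defined as an adjusted p under 0.01 and a change beyond 2-fold, 7 of them higher (0.0373%) and 3 lower (0.016%) after OHT. Ddx4 also passed the p limit, with a change under 2-fold, which made 11 genes (0.0585%), 4 of them lower (0.0213%). Without HDAC1-E63R untreated replicate 3, the same contrast gave 42 higher (0.215%) and 21 lower (0.108%) DEGs among 19503 tested genes (0.323% in all), and 144 genes higher (0.738%) and 128 lower (0.656%) at the p limit alone (1.39%). All 10 DEGs and all 11 genes found with 18 libraries were also found with 17. The 6 HDAC1-WT libraries alone gave 15 higher (0.0912%) and 7 lower (0.0425%) DEGs among 16453 tested genes (0.134%), 21 of which were among the DEGs of the 17-library fit, and DESeq2 gave 25 and 10. At the p limit alone the 6 libraries gave 66 genes higher (0.401%) and 51 lower (0.31%), 0.711% in all, and at an unadjusted p under 0.05 8.13% were higher and 7.99% lower.

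The counts moved with the libraries in the fit. Within the HDAC1-WT line, leaving out OHT replicate 3 lowered the 17-library count at the p limit to 46 higher and 32 lower, and leaving out untreated replicate 1 to 49 and 42, whereas leaving out OHT replicate 1 left 144 and 139. At an unadjusted p under 0.05, 1050 genes (5.59%) were higher and 802 (4.27%) lower with 18 libraries, and at an adjusted p under 0.05, 28 (0.149%) and 17 (0.0905%). The median log2 fold change over all tested genes was 0 and the median absolute value 0.19.

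**Figure D1:**
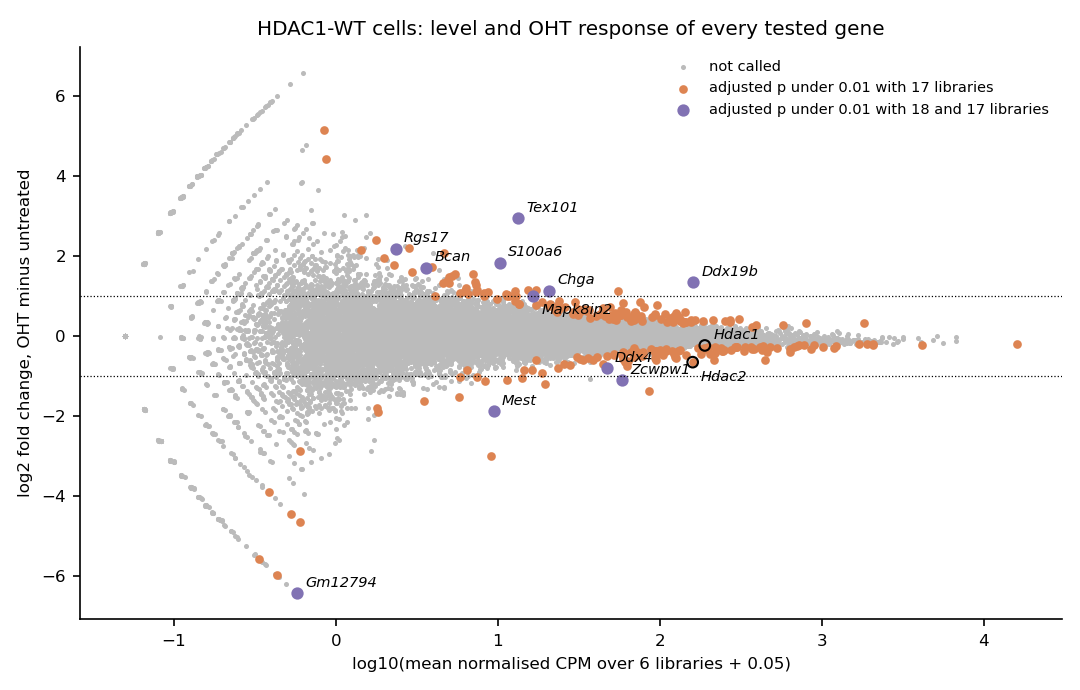
Log2 fold change (OHT minus untreated) of each of the 18791 tested genes in HDAC1-WT cells against its mean level as log10 of CPM plus 0.05, with dotted lines at 2-fold. The 11 genes passing an adjusted p of 0.01 with 18 and 17 libraries are purple and named, further genes passing with 17 libraries are orange, and Hdac1 and Hdac2 are circled; most tested genes lie close to 0.

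Tex101 (chr7:24668007-24676675, minus strand), which encodes a glycosylphosphatidylinositol-anchored protein of male germ cells, was the DEG with the largest increase. Its counts were 32, 52 and 13 in untreated and 245, 335 and 186 in OHT-treated libraries, or 3.00 ± 1.71 and 23.5 ± 6.98 CPM (SD, n = 3). The lowest OHT-treated library lay well above the highest untreated one, and the log2 fold change was 2.95 ± 0.40 (SE, adjusted p = 0.00122).

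Ddx19b (chr8:111003188-111031751, minus strand), an RNA helicase that works in mRNA export at the nuclear pore, was the DEG with the highest level. It had 1081, 895 and 902 counts untreated and 2380, 2618 and 2505 after OHT, that is 90.6 ± 9.73 and 229 ± 8.13 CPM. Both groups were tight and far apart, with a log2 fold change of 1.34 ± 0.16 (SE, adjusted p = 0.000156). The closely related neighbour Ddx19a holds 12.4% of the 50-base stretches of Ddx19b and had a log2 fold change of -0.16 ± 0.13, which did not pass the test.

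S100a6 (chr3:90612882-90624181, plus strand), a calcium-binding protein of the S100 family, had 62, 37 and 43 counts untreated and 156, 176 and 192 after OHT (4.47 ± 1.22 and 16 ± 0.966 CPM), a log2 fold change of 1.84 ± 0.27. Rgs17 (chr10:5825663-5922400, minus strand), a regulator that speeds GTP hydrolysis by heterotrimeric G proteins, was near the detection limit untreated, with 13, 6 and 7 counts, and reached 41, 42 and 40 after OHT (log2 fold change 2.18 ± 0.35). Both rose in every OHT-treated library beyond every untreated library, with edgeR adjusted p of 0.00247 and 0.00631.

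The remaining 3 higher DEGs are best known from neurons and endocrine cells. Bcan (chr3:87987531-88000230, minus strand), the proteoglycan brevican of the brain extracellular matrix, had 20, 19 and 14 counts untreated and 62, 43 and 74 after OHT (log2 fold change 1.71 ± 0.27). Chga (chr12:102554969-102565028, plus strand), encoding chromogranin A of secretory granules, had 143, 154 and 116 counts untreated and 256, 315 and 363 after OHT (1.13 ± 0.18). Mapk8ip2 (chr15:89453913-89464468, plus strand), a scaffold of the JNK signalling pathway, had 117, 124 and 107 counts untreated and 221, 235 and 266 after OHT (1.01 ± 0.16). The 3 genes rose with edgeR adjusted p between 0.00631 and 0.00635, their groups did not overlap, and Mapk8ip2 lay only just beyond the 2-fold limit.

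Of the genes that fell, Mest (chr6:30723547-30748465, plus strand), an imprinted gene expressed from the paternal allele that encodes an alpha/beta hydrolase-like protein, had the smallest p in the whole comparison. It had 153, 185 and 132 counts untreated and 55, 30 and 45 after OHT, or 14.7 ± 1.83 and 4.00 ± 1.29 CPM (SD, n = 3). The highest OHT-treated library lay below the lowest untreated one, and the log2 fold change was -1.89 ± 0.17 (SE, adjusted p = 3.37e-06). Copg2, on the opposite strand, overlaps 23.1% of the Mest exons. Its log2 fold change was -0.31 ± 0.13, called with 17 libraries (edgeR adjusted p = 0.00933) but not with 18. The 17-library call of Copg2 held in no fit with a single HDAC1-WT library left out. Whether the counting used strand is not stated in the sources used here.

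Zcwpw1 (chr5:137787798-137822621, plus strand), a reader of methylated histone H3 that acts with PRDM9 in meiotic recombination, had 948, 843 and 737 counts untreated and 377, 427 and 405 after OHT (79.4 ± 7.70 and 36.9 ± 1.58 CPM). The log2 fold change was -1.10 ± 0.11 (SE, adjusted p = 1.04e-05). Ddx4 (chr13:112598333-112652475, minus strand), the germ-cell RNA helicase also called VASA, had 659, 636 and 597 counts untreated and 375, 397 and 338 after OHT, a log2 fold change of -0.81 ± 0.12 (adjusted p = 0.0022). Both germline genes were lower in every OHT-treated library.

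Gm12794 (chr4:101940407-101943183, plus strand), a predicted gene without an assigned role, had 18, 3 and 12 counts untreated and 0 in all 3 OHT-treated libraries. Set against the floor of 3 counts in each library, its mean was at least 3.81-fold lower after OHT. It passed the 18-library test (adjusted p = 0.00635), but untreated replicate 2 held no more than the 3 counts of the floor. Gm12800, which lies 31.3 kb away and shares 44.7% of the 50-base stretches of Gm12794, had 10, 10 and 11 counts untreated and 0, 0 and 4 after OHT, so reads of the pair may be split between them. The direction was the same for both copies.

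**Figure D2:**
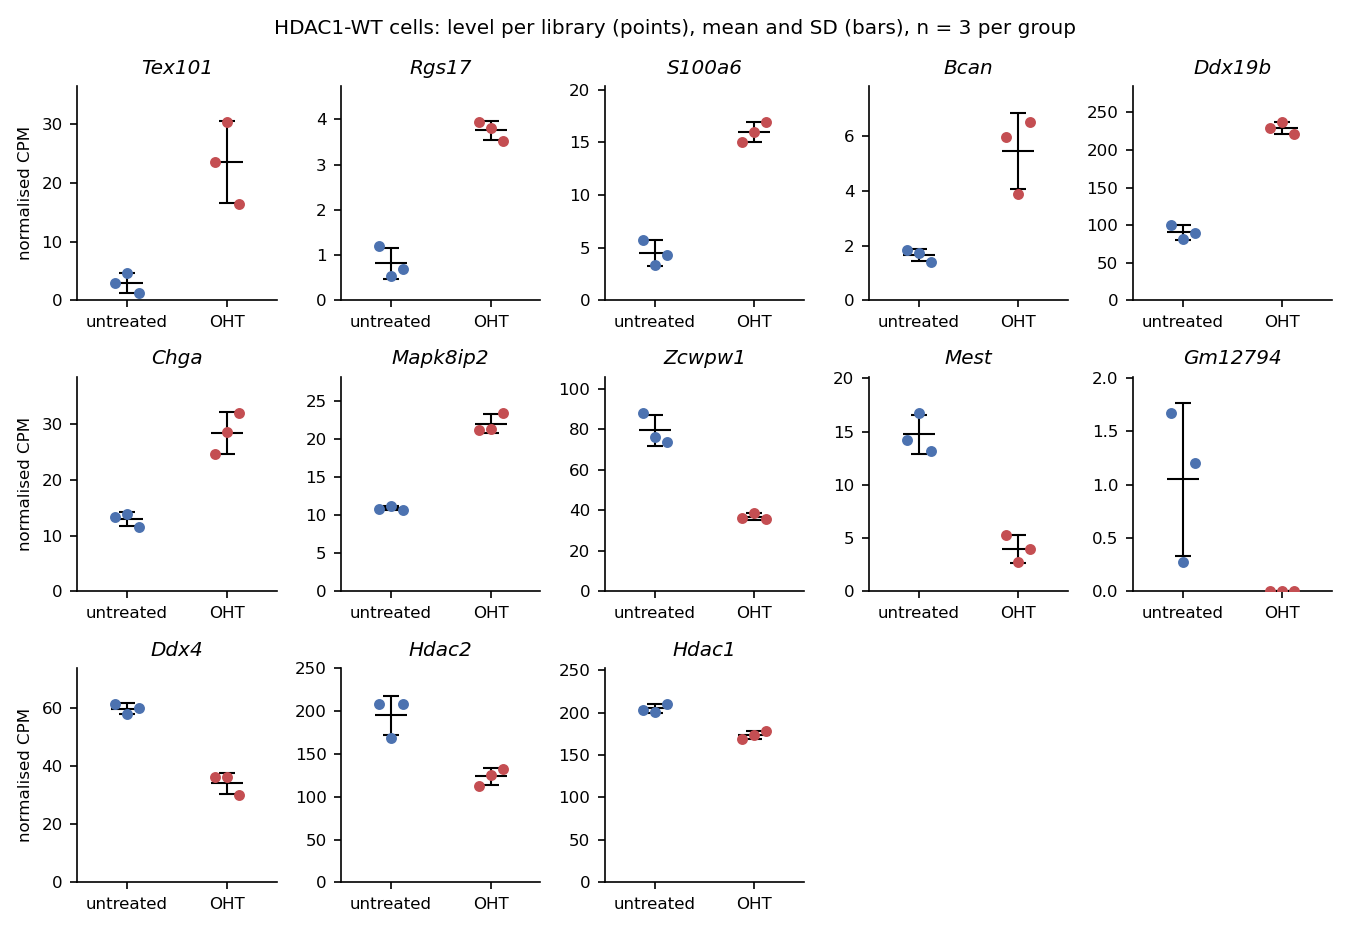
Normalised CPM of the 10 DEGs, Ddx4, Hdac2 and Hdac1 in each HDAC1-WT library (points, 3 untreated in blue and 3 OHT-treated in red), with the group mean and SD as bars and each vertical axis starting at 0. The untreated and OHT-treated points do not overlap in any panel, and Gm12794 at 0 after OHT.

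Groups that do not overlap are common at this size. Over all tested genes, 1806 (9.61%) were higher in each OHT library than in any untreated one, and 1811 (9.64%) were lower, so the separation alone sets no gene apart. Leaving out each HDAC1-WT library in turn with 18 libraries, Mest, Zcwpw1 and Ddx19b passed the p limit in 6 of 6 fits, Tex101 in 3, S100a6 and Ddx4 in 2, and Bcan, Rgs17 and Gm12794 in 1, while Chga and Mapk8ip2 passed in 0. With 17 libraries all 11 genes passed in 6 of 6 such fits.

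The stretches of 250 bases upstream of the annotated starts are shown for some of these genes. Sequences are from RefSeq (GRCm38.p6), 5′ to 3′ on the strand of the gene, with CpG dinucleotides, the target of DNA methylation, in capitals. Mest and Ddx19b are shown because they are the DEGs with the smallest p in each direction and each has more than one start, and S100a6 and Ddx4 because they have the fewest and the most CpG.
Mest, upstream start, chr6:30733256-30733505, plus strand: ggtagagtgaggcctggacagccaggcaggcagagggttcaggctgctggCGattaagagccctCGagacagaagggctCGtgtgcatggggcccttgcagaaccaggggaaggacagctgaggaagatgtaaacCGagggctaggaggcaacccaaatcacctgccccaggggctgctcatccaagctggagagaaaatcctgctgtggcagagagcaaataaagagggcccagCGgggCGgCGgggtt
Mest, downstream start, chr6:30737800-30738049, plus strand: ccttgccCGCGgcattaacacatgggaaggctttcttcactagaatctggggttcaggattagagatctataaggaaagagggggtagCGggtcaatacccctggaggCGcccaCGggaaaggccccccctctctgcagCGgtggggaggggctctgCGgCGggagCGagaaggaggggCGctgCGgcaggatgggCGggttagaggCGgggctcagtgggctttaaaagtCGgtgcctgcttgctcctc
Ddx19b, upstream start, chr8:111031752-111032001, minus strand: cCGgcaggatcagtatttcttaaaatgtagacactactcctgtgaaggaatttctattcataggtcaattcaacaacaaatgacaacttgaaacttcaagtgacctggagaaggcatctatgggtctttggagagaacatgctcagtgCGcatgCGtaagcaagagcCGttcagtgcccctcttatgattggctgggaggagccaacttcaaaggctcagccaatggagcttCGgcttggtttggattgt
Ddx19b, downstream start, chr8:111027771-111028020, minus strand: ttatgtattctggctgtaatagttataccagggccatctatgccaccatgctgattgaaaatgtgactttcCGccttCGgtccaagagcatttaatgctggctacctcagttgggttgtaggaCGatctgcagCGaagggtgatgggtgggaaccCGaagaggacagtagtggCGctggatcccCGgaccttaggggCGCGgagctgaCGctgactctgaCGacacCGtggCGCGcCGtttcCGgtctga
S100a6, chr3:90612644-90612893, plus strand: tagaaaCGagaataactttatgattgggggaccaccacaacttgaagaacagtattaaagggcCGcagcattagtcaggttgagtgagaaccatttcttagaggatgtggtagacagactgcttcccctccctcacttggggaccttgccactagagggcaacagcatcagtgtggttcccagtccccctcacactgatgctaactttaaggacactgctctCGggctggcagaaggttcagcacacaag
Ddx4, chr13:112652311-112652560, minus strand: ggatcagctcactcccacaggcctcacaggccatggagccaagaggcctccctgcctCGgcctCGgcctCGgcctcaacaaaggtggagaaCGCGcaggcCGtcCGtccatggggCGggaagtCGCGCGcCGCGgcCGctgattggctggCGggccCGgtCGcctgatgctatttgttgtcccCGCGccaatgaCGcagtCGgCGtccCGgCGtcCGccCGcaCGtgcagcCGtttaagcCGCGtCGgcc
The Mest stretches hold 7 and 14 CpG, those of Ddx19b 5 and 16, that of S100a6 3 and that of Ddx4 31. Windows of 300 bases that also take in the first 50 transcribed bases had an entry for 10 of the 11 genes. The first entry listed for each gene was used, which for Mest and Ddx19b was the upstream start. The median of the 10 genes was 19.5 CpG (range 6 to 38), against 19 (range 0 to 65) over 12440 tested genes. The upstream windows of Mest and Ddx19b held 8 and 11 CpG, against 17 and 18 in the downstream ones. The letters GGGCGG on either strand, the binding sequence of SP factors, were found in 80% of those 10 windows and in 61.4% of all. They were absent from the upstream window of Ddx19b and present in its downstream one. The E-box CACGTG was found in 20%, in S100a6 and Ddx4, and in 9.89% of all. With 10 windows these shares are a description only.

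The nearest genes on either side were followed for each called gene, since a change shared by neighbours would not be particular to one promoter. Aars, the alanyl-tRNA synthetase gene, starts 1.39 kb from Ddx19b in the opposite direction. It moved the other way, from 425 ± 18 to 340 ± 34.7 CPM (log2 fold change -0.32 ± 0.10), and passed with 17 libraries (adjusted p = 0.000587) and with 6 (0.00912), not with 18 (0.185). Pilra, an inhibitory immune receptor gene that ends across the 3′ end of Zcwpw1, had 217, 202 and 183 counts untreated and 86, 121 and 91 after OHT. Its log2 fold change of -1.06 ± 0.30 was close to that of Zcwpw1, and it passed with 17 libraries (adjusted p = 0.00536) but not with 18 (0.166). The 17-library call held in 1 of 6 fits with one HDAC1-WT library left out. The genes overlap in exon sequence on opposite strands, 8.21% of Zcwpw1 and 15.1% of Pilra, and whether reads of one were counted for the other was not tested. Mepce starts 0.143 kb from Zcwpw1 on its other side and had a log2 fold change of -0.03 ± 0.14. None of the other neighbours with a tested value passed with 17 libraries, apart from Gm12800 beside Gm12794 and Copg2 beside Mest.

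Chromosome by chromosome, the median log2 fold change in HDAC1-WT cells ran from -0.07 (chromosome 6) to 0.04 (chromosome 17).

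Whether the response was particular to the wild-type rescue was asked by testing, for each DEG, the difference between its OHT effect in the HDAC1-WT line and in each mutant line (the interaction). OHT gave 5.91% DEGs in HDAC1-E63R and 16.6% in HDAC1-Y48E with 18 libraries. Over all genes, 2.45% differed between HDAC1-E63R and HDAC1-WT and 12.6% between HDAC1-Y48E and HDAC1-WT at an adjusted p under 0.01. Of the 10 HDAC1-WT DEGs, 5 differed from HDAC1-E63R and 5 from HDAC1-Y48E, with 18 and with 17 libraries alike. Since the DEGs were selected on the HDAC1-WT effect, which enters both sides of the difference, these counts are a description. The mutant lines share no control library with HDAC1-WT, but each interaction uses the same 6 HDAC1-WT libraries.

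Mest showed the clearest contrast. It fell in HDAC1-WT cells, while its log2 fold change was 0.48 ± 0.12 in HDAC1-E63R and 0.14 ± 0.12 in HDAC1-Y48E, differences of 2.36 ± 0.21 (adjusted p = 1.32e-06) and 2.03 ± 0.21 (3.81e-07). Its untreated level also differed, at 14.7 ± 1.83 CPM in HDAC1-WT, 244 ± 25 in HDAC1-E63R and 162 ± 2.70 in HDAC1-Y48E (SD, n = 3), log2 differences of 4.05 ± 0.14 and 3.46 ± 0.14 from the wild-type line. Mest was thus already low in the HDAC1-WT line before OHT, and the highest HDAC1-WT library, at 16.8 CPM, lay below every library of the mutant lines, whose lowest held 160 CPM.

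Ddx19b also differed between the lines before treatment. Before OHT it lay at 90.6 ± 9.73 CPM in HDAC1-WT, 459 ± 150 in HDAC1-E63R and 245 ± 12.2 in HDAC1-Y48E. After OHT it reached 229 ± 8.13 CPM in HDAC1-WT, 548 ± 24.3 in HDAC1-E63R and 275 ± 17.2 in HDAC1-Y48E. The increase in HDAC1-WT was larger than in either mutant line, where the log2 fold changes were 0.25 ± 0.15 and 0.16 ± 0.15, with differences of -1.08 ± 0.22 (adjusted p = 0.00421) and -1.17 ± 0.22 (0.000487). HDAC1-E63R untreated replicate 3 was the lowest of its group for Ddx19b, at 295 CPM, and without it the first difference was -1.32 (adjusted p = 4.07e-13).

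Gm12794 fell to 0 in HDAC1-WT but had log2 fold changes of 1.37 ± 0.27 in HDAC1-E63R and 1.17 ± 0.26 in HDAC1-Y48E. Its levels in the mutant lines were 6.35 and 13.1 CPM untreated and 16.5 and 29.4 CPM after OHT, all above the 1.05 CPM of untreated HDAC1-WT cells. S100a6 rose in all 3 lines, less in HDAC1-WT (1.84 ± 0.27) than in HDAC1-E63R (3.62 ± 0.23) or HDAC1-Y48E (4.41 ± 0.24), with differences of 1.79 ± 0.36 (adjusted p = 0.00384) and 2.58 ± 0.36 (2.00e-05). In untreated HDAC1-E63R cells replicate 3 was the highest for S100a6, at 29.6 CPM, and without it the first difference was 2.32 (adjusted p = 3.73e-11). S100a6 reached 16 CPM after OHT in HDAC1-WT, against 222 and 269 CPM in the mutant lines.

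Bcan rose in HDAC1-WT and HDAC1-Y48E (1.71 ± 0.27 and 1.13 ± 0.24) and had a log2 fold change of -0.03 ± 0.24 in HDAC1-E63R, a difference of -1.74 ± 0.37 from HDAC1-WT (adjusted p = 0.00537). Its untreated level of 1.66 CPM in HDAC1-WT stood below 6.04 in HDAC1-E63R and 7.09 in HDAC1-Y48E, so that OHT brought HDAC1-WT cells to 5.47 CPM. The Chga effect differed from that in HDAC1-Y48E, where its log2 fold change was -0.01 ± 0.19 (difference -1.14 ± 0.27, adjusted p = 0.0032); in HDAC1-E63R it was 0.54 ± 0.19 and the difference did not pass (adjusted p = 0.200).

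For Zcwpw1, Mapk8ip2, Tex101, Rgs17 and Ddx4, no difference from either mutant line passed the test. Zcwpw1 had log2 fold changes of -1.10, -1.09 and -1.29 in HDAC1-WT, HDAC1-E63R and HDAC1-Y48E, and Mapk8ip2 1.01, 1.00 and 1.34. Tex101 had 2.95, 2.38 and 3.77 and Rgs17 2.18, 2.43 and 3.20. Ddx4, below the 2-fold limit, had -0.81, -0.77 and -0.52. Each of the 5 genes passed the test in the same direction in all 3 lines, although a p that misses the limit does not show that the sizes were equal, and the SE of these differences ranged from 0.155 to 0.582.

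**Figure D3:**
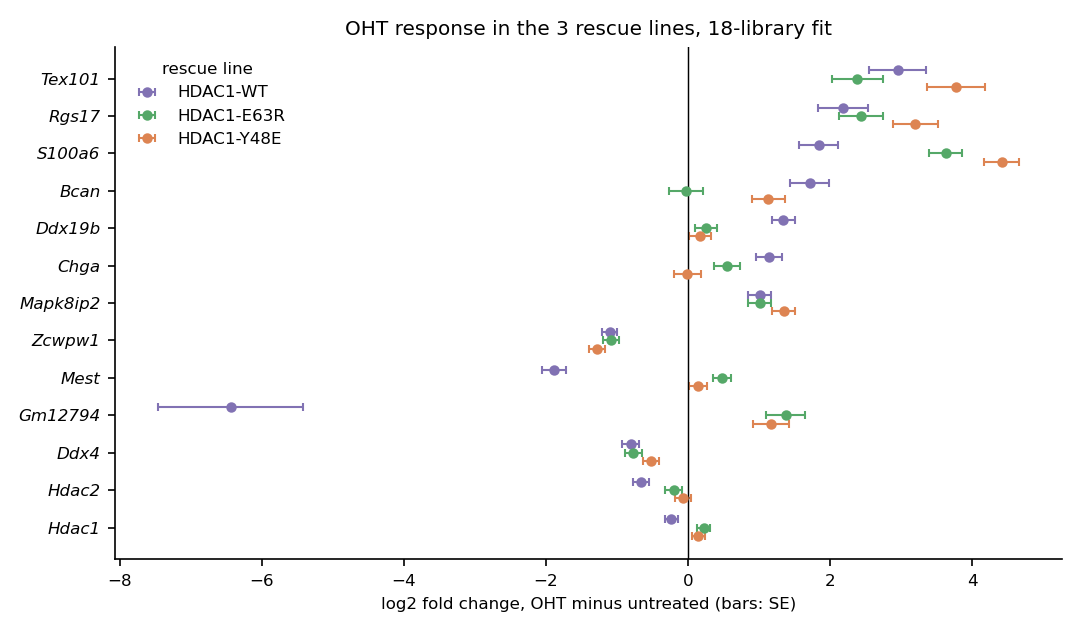
Log2 fold change after OHT (horizontal axis, with SE as bars) of the 10 DEGs, Ddx4, Hdac2 and Hdac1 in the HDAC1-WT, HDAC1-E63R and HDAC1-Y48E lines. Mest and Gm12794 lie below 0 in HDAC1-WT and above 0 in both mutant lines, whereas Zcwpw1 and Ddx4 lie below 0 in all 3 lines; the Gm12794 value in HDAC1-WT is fitted against counts of 0.

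Hdac1 itself separated the lines. Untreated HDAC1-WT libraries held between 201 and 210 CPM of Hdac1, while untreated HDAC1-E63R and HDAC1-Y48E libraries held between 94.9 and 110 CPM and between 97.9 and 104 CPM. The log2 differences from HDAC1-WT were -0.96 ± 0.09 and -1.02 ± 0.09 (adjusted p = 8.81e-08 and 5.60e-08), where 16.9% and 12.2% of all tested genes differed between the untreated lines (20.5% and 21.4% with 17 libraries). After OHT the order of the lines was the same, at 174 ± 5.06 CPM in HDAC1-WT, 122 ± 9.36 in HDAC1-E63R and 112 ± 1.49 in HDAC1-Y48E. Hdac2 had log2 fold changes of -0.21 ± 0.11 in HDAC1-E63R and -0.07 ± 0.11 in HDAC1-Y48E, and its effect in HDAC1-WT differed from these with 17 libraries (adjusted p = 0.000268 and 3.11e-05) but not with 18 (0.102 and 0.0105). The lines thus differed in counts on the Hdac1 gene before OHT. Whether reads of the construct are among these counts was not tested. The part of the Hdac1 level in the other differences between lines was not tested either.

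**Figure D4:**
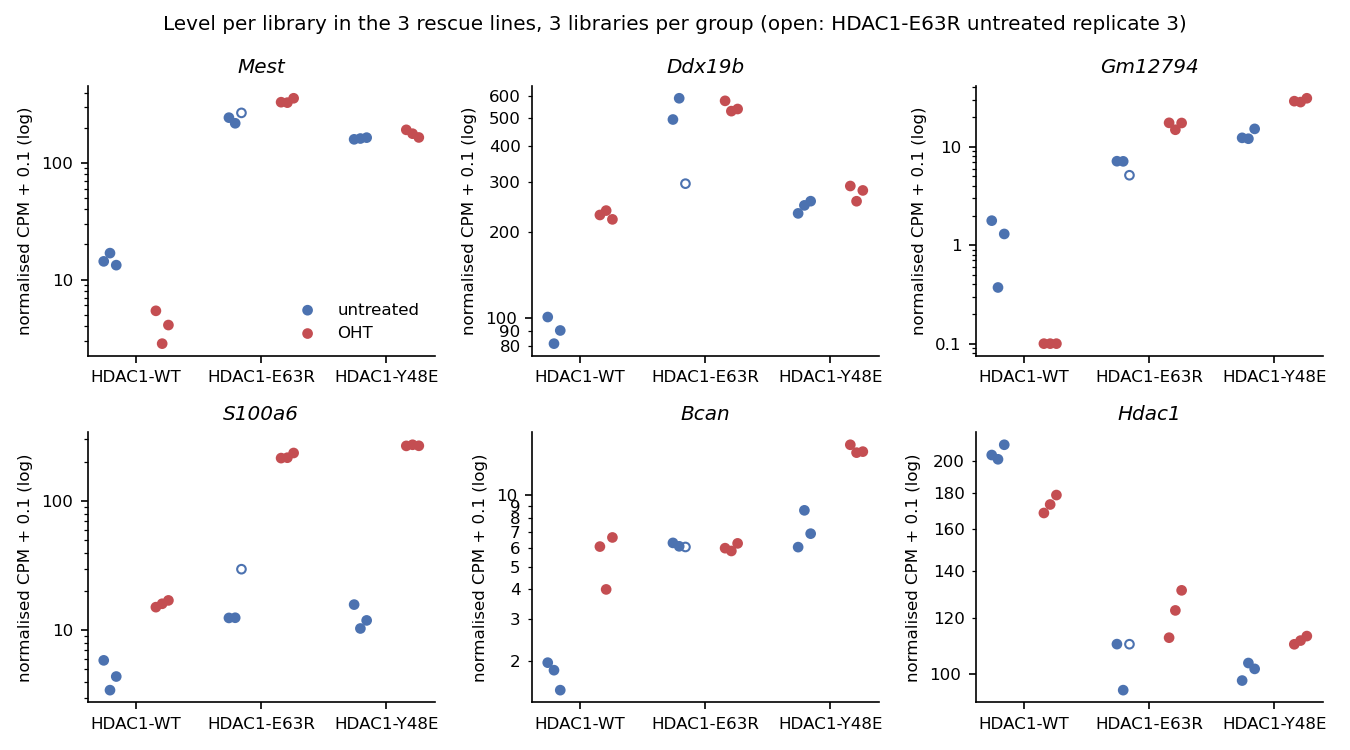
Normalised CPM plus 0.1 on logarithmic axes of Mest, Ddx19b, Gm12794, S100a6, Bcan and Hdac1 in every library of the 3 lines (blue untreated, red OHT-treated, 3 libraries per group), with HDAC1-E63R untreated replicate 3 as an open point. For the first 5 genes every untreated HDAC1-WT library lies below every untreated mutant library, and for Hdac1 every HDAC1-WT library lies above the mutant libraries.

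Beyond these 11 genes, those with the largest changes were taken from the 6 HDAC1-WT libraries fitted alone. Only genes that passed an adjusted p under 0.01 and 2-fold in that edgeR fit, with groups apart, were eligible. Passing with 6 libraries is therefore no further support, and the 17-library fit holds the same 6 libraries. Phactr3, a regulator of protein phosphatase 1 and actin, had 17, 26 and 13 counts untreated and 60, 110 and 73 after OHT (log2 fold change 2.07 ± 0.36). Grm4, a metabotropic glutamate receptor, went from 37, 29 and 21 to 94, 64 and 106 counts (1.56 ± 0.30). Mapk4, an atypical MAP kinase, went from 25, 57 and 31 to 81, 103 and 159 counts (1.55 ± 0.28). Col11a1, a fibrillar collagen chain, was steadier, with 124, 112 and 102 counts untreated and 245, 263 and 262 after OHT (1.15 ± 0.35). These 4 genes also passed with 17 libraries (edgeR adjusted p of 0.000898 or less) and missed the limit with 18. Amdhd1, an enzyme of histidine breakdown, and Tmem63c, a membrane channel protein, had log2 fold changes of 2.09 ± 0.58 and 1.35 ± 0.49, and passed with the 6 libraries; Amdhd1 did not pass with 17 (0.0269) and Tmem63c did (0.0095), a call that held in 1 of 6 fits with one HDAC1-WT library left out.

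Among the decreases of the same kind were Trank1, with 97, 98 and 75 counts untreated and 40, 38 and 18 after OHT (log2 fold change -1.52 ± 0.35), and Gadd45g, a growth-arrest and DNA-damage inducible gene, with 165, 169 and 157 counts untreated and 100, 86 and 47 after OHT (-1.11 ± 0.37). Both fell by the 17-library test (edgeR adjusted p = 0.000795 and 0.00357), Trank1 in 5 and Gadd45g in 3 of 6 fits with one HDAC1-WT library left out. Gm7536 (log2 fold change -1.38 ± 0.53) has all of its 50-base stretches in the ribosomal protein gene Rpl27a, so its counts are uncertain. Its untreated counts were spread from 642 to 2166. A pair of further ribosomal pseudogenes, Gm6139 and Rps2-ps13, passed with 17 libraries, and untreated replicate 1 held 477 and 559 counts of them where the other untreated libraries held at most 27 and 189.

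Gene lists were then counted in HDAC1-WT cells, by the number of members higher or lower and the number passing an adjusted p of 0.01, beside a median of 0 over all tested genes. Few list members were called with 18 libraries, so the counts that follow are those of the 17-library fit, in which 0.738% of all genes were called higher and 0.656% lower. Log2 fold changes and SE are those of the 18-library fit. The lists were chosen with earlier results of these data known, so the number of calls in a list is a description only. Calls resting on few list members often did not hold when one of the 6 HDAC1-WT libraries was left out. For the SIN3, NuRD, trophoblast and keratinocyte lists, each with a single call, the count then reached 0. That of the primitive endoderm list did so only without OHT replicate 3.

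Few genes of the subunits that HDAC1 works with were called, which does not show that the others were unchanged. Of 18 tested SIN3 genes, 16 NuRD genes and 13 CoREST genes, the median log2 fold changes were 0.01, 0.01 and 0.07, and 1, 1 and 0 members were called. Sap30, a SIN3 subunit, went from 94.1 ± 6.02 to 72.6 ± 3.60 CPM per kilobase (log2 fold change -0.38 ± 0.17) and Rbbp4, the histone-binding subunit of NuRD and SIN3, from 51.7 ± 1.83 to 42.9 ± 1.09 (-0.27 ± 0.11). Both fell with 17 libraries (edgeR adjusted p = 0.00347 and 0.00235) and neither did with 18. The scaffolds that contact HDAC1 directly did not pass: Sin3a had a log2 fold change of 0.22 ± 0.13, Mta1 of 0.09 ± 0.11, Mta2 of -0.18 ± 0.10, Rcor1 of -0.02 ± 0.16, Rcor2 of 0.25 ± 0.10 and Rere of -0.02 ± 0.19. Over the SIN3, NuRD and CoREST lists, log2 fold changes ran from -0.38 to 0.35, from -0.27 to 0.43 and from -0.26 to 0.28. Of 11 tested MiDAC, MIER and RERE genes none was called, with log2 fold changes from -0.75 to 0.86. Of 14 histone acetyltransferase genes, which oppose the deacetylases, none was called.

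Genes of naive pluripotency, which keep ESCs undifferentiated, were more often higher than lower. Of 22 tested, 14 were higher and 8 lower, with a median log2 fold change of 0.12. With 17 libraries 5 rose: Klf4, Tbx3, Zfp42, Tdgf1 and Esrrb. None of the 8 lower genes was called. Per kilobase of exon, Pou5f1 went from 558 ± 29.5 to 537 ± 20.6 CPM (SD, n = 3). Nanog went from 397 ± 8.57 to 392 ± 5.59 and Fgf4 from 107 ± 3.54 to 90.3 ± 1.65. Zfp42 (Rex1), a zinc finger marker of naive cells, was at 278, 242 and 269 CPM untreated and at 325, 321 and 409 after OHT (log2 fold change 0.42 ± 0.11). Klf4, a reprogramming factor, was at 226, 247 and 230 and at 286, 297 and 339 CPM (0.39 ± 0.10), and Tbx3 had 0.40 ± 0.12. The increases were small but shared by all OHT-treated libraries, with the third OHT library highest for each of the 5. Without that library 0 of 22 passed, and leaving out the other HDAC1-WT libraries one at a time left between 2 and 6. The calls therefore depended on OHT replicate 3, but also on other libraries. Without untreated replicate 1 only Esrrb and Zfp42 passed, and without untreated replicate 2 only Klf4, Tbx3 and Tdgf1. Over all genes, leaving out OHT replicate 3 also lowered the number called higher, from 144 to 46. Lefty2, a Nodal antagonist, and Dnmt3l, a cofactor of DNA methyltransferases, both from the formative and primed list, rose as well (0.82 ± 0.23 and 0.36 ± 0.11), Lefty2 with 113 CPM in OHT replicate 3 against 52.3 and 60.7 in the others.

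Germline and meiosis genes, many of which are kept low in ESCs by chromatin, held 9 calls. Of 53 tested, 34 were lower and 19 higher (median -0.17), and with 17 libraries 7 fell and 2 rose. Besides Zcwpw1 and Ddx4, the genes that fell were Dazl, an RNA-binding translational regulator of germ cells (-0.48 ± 0.14), Mael, a piRNA pathway factor (-0.74 ± 0.17), Meioc, a meiotic regulator (-0.49 ± 0.14), Slc25a31, a testis ADP/ATP carrier (-1.13 ± 0.29), and Rpl10l (-0.52 ± 0.21). Tex101 and Taf9b, a TFIID-related factor, rose, the latter from 7.29 ± 1.49 to 15.2 ± 0.875 CPM (1.05 ± 0.19). The list thus held DEGs of both directions. With one HDAC1-WT library left out, 2 to 9 were called lower and 1 or 2 higher, and Tex101, Zcwpw1 and Ddx4 were called each time. Rpl10l was called only without OHT replicate 1. Dmrt1, a sex-determination factor outside the list and picked after its values were seen, fell from 78.6 ± 2.76 to 46.7 ± 4.32 CPM (-0.75 ± 0.16, adjusted p = 0.000463 with 17 libraries).

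Of 30 tested p53 targets and inhibitors of cyclin-dependent kinases, 26 were lower and 4 higher, with a median of -0.24. Cdkn1b (p27) had -0.37 ± 0.10, the apoptosis gene Pmaip1 (Noxa) -0.33 ± 0.11, Ccng1 -0.29 ± 0.09, Zmat3 -0.32 ± 0.14 and Eda2r -0.37 ± 0.17, and these 5 fell with 17 libraries. Gadd45a rose (0.60 ± 0.19). Mdm2, a p53 target that encodes its ubiquitin ligase, had -0.33 ± 0.13 and did not pass (adjusted p = 0.0201). The direction was shared by most members, but no call held in every fit: with 1 library left out, between 0 and 7 were called lower, and none when OHT replicate 3, untreated replicate 1 or untreated replicate 2 was left out. Cdkn1a (p21) had overlapping groups, at 206, 198 and 174 CPM untreated and 189, 190 and 136 after OHT.

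Cholesterol and stress genes were more often lower than higher, and glycolysis and hypoxia genes had calls in both directions. Of 25 cholesterol synthesis genes 20 were lower (median -0.20), and Msmo1 and Insig1 fell with 17 libraries (-0.39 ± 0.12 and -0.46 ± 0.13). Of 26 genes of the unfolded protein, integrated stress and heat shock responses 19 were lower (median -0.14), and Atf4, the transcription factor of the integrated stress response, and Hspe1 fell (-0.29 ± 0.13 and -0.28 ± 0.17). Of 25 glycolysis and hypoxia genes 18 were lower and 7 higher (median -0.05), with 2 called in each direction with 17 libraries. Pdk1, which restrains entry of pyruvate into mitochondria, and Egln3, an oxygen-sensing hydroxylase, rose (0.56 ± 0.15 and 0.48 ± 0.14), while Ddit4, an inhibitor of mTORC1 signalling, and Ldhb fell (-0.34 ± 0.10 and -0.60 ± 0.14). Without OHT replicate 3, untreated replicate 1 or untreated replicate 2, Ldhb alone of these was called. Ldhb, a subunit of lactate dehydrogenase, was at 556, 563 and 496 CPM untreated and 379, 399 and 291 after OHT (adjusted p = 1.16e-07 with 17 libraries and 0.0684 with 18). In a list of aminoacyl-tRNA synthetases put together after values were seen, 26 of 37 were lower, and Gars (-0.45 ± 0.09), Eprs, Sars, Nars and Aars passed with 17 libraries. For the cholesterol and stress lists, the count of genes called lower ran from 0 to 2 and from 0 to 3 with one library left out. In those fits Atf4 was called only without OHT replicate 1 or untreated replicate 3, and Hspe1 only without untreated replicate 3.

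Genes of the 2-cell stage, which a rare subset of ESCs expresses, were mostly near the detection limit. Eif1a and Zfp809 were the exceptions, at mean levels of 170.2 and 42.3 CPM untreated, and the next highest, Usp17le, was at 1.47 CPM. Of 20 tested, 13 were lower and 5 higher (median -0.36), and Zscan4e fell with 17 libraries, from 8, 1 and 11 counts to 0, 0 and 1. The Zscan4e call held in 1 of 6 fits with one HDAC1-WT library left out, and the list then had 0 to 2 genes called lower. Zscan4-ps2, of the same family and no member of the list, is named as a pseudogene but annotated as protein coding in GENCODE M21. It had 7, 5 and 6 counts untreated and 0 in all OHT-treated libraries, at least 2.06-fold lower against the same floor per library. Members of this family share near-identical sequence, and the counts are too low to say which copy they come from.

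Imprinted genes did not move as a group, with 22 higher and 29 lower of 52 tested (median -0.04). Mest and Copg2 were called lower, and Peg3, a paternally expressed zinc finger gene, rose with 17 libraries (0.45 ± 0.19). With a single HDAC1-WT library left out, between 0 and 3 were called higher and 1 lower. The lower call was Mest each time, so that of Copg2 held in no such fit. Peg3 was not called without OHT replicate 3, untreated replicate 1 or untreated replicate 2. Zfp57, which protects imprinted methylation, rose from 105, 100 and 108 CPM to 136, 128 and 188 (0.53 ± 0.12, adjusted p = 0.00045 with 17 libraries).

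Lineage genes gave scattered calls. Among keratinocyte genes 16 of 22 were higher (median 0.21), and Sfn (stratifin) rose with 17 libraries (0.41 ± 0.15), whereas Krt5 stayed at or below 0.816 CPM and Krt8 had 0.33 ± 0.11 without passing. Among neural genes Bcan and Elavl3, an RNA-binding protein of neurons, rose (the latter 0.61 ± 0.14). Lamb1 and Lrp2, genes of primitive endoderm, fell with 17 libraries (-0.44 ± 0.13 and -0.59 ± 0.27), as did Esx1, a placental homeobox gene (-0.80 ± 0.19). The Lrp2 call held in no fit with a single HDAC1-WT library left out. Lamb1 was lost only without OHT replicate 3, and Esx1 without that library, untreated replicate 1 or untreated replicate 2. Thy1, a marker used for fibroblasts, rose from 14.9, 19 and 16 to 28.7, 26.7 and 36.6 CPM (0.88 ± 0.16). Of 23 interferon response genes 16 were higher (median 0.25) and 0 were called at an adjusted p under 0.01 by edgeR with 18 or 17 libraries, with 4 higher and 1 lower at an unadjusted p under 0.05. Of 20 genes of the estrogen receptor response, listed because OHT binds that receptor, Egr1, an immediate early gene, rose with 17 libraries (0.59 ± 0.12) and 13 members were higher.

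**Figure D5:**
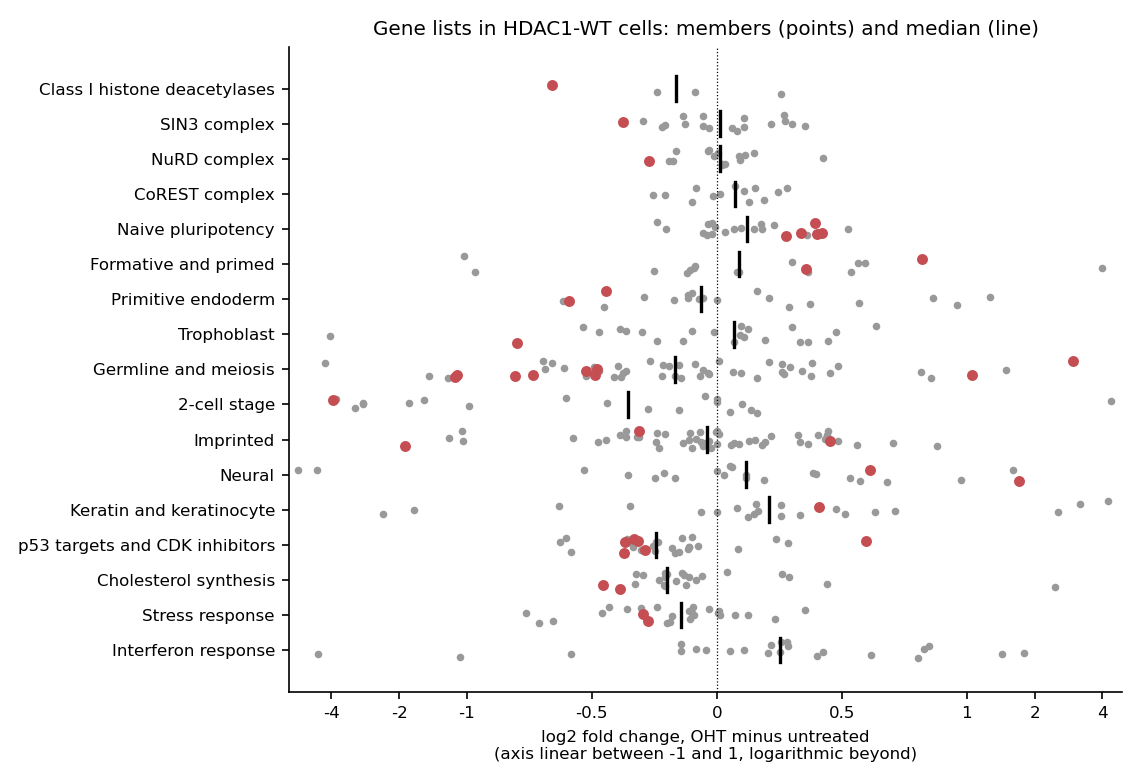
Log2 fold change after OHT in HDAC1-WT cells of every tested member of 17 gene lists (points; red, adjusted p under 0.01 with 17 libraries), with the list median as a black line; the axis is linear between -1 and 1 and logarithmic beyond. Medians lie between -0.36 (2-cell stage) and 0.25 (interferon response), and the widest scatter belongs to lists with genes near the detection limit.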

How the data were processed

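RNA-seq counts per gene from 18 libraries of 3 rescue lines, 3 untreated and 3 OHT treated each, were analysed as deposited. The authors aligned reads to mm10 with HISAT2 2.1.0, handled alignments with SAMtools 1.9 and made raw counts per gene with HTSeq, per the labels and the study's methods. Strand setting and counting version are not given in the sources used here. Entries naming no gene took 59.8% to 60.1% of the HDAC1-WT reads (no feature, 45.2% to 45.9%) and were left out. Whether multiply aligned reads were dropped is not stated, so counts of near-identical copies are uncertain.

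Genes were filtered by edgeR's filterByExpr by group, scaled by TMM and tested in one model of 18 libraries with edgeR 4.0.16 (quasi-likelihood F test, Benjamini-Hochberg adjustment, R 4.3.3). DEGs had an adjusted p under 0.01 and a change beyond 2-fold. SE is the log2 fold change divided by the square root of F. CPM values are normalised by TMM. DESeq2 1.42.0, relative log expression factors, no filter, glmTreat, a replicate block, the 6 HDAC1-WT libraries alone and leaving out libraries were alternatives. Leaving out HDAC1-E63R untreated replicate 3 for all results was added after seeing the data. The steps were tested on simulated data. Groups came from the sample labels. The labels give replicate numbers but do not say whether they pair the libraries. Correlations of same-numbered deviations were 0.0206, -0.00484 and 0.0392, and those of differently numbered ones ran from -0.035 to 0.0134. Such small values do not settle pairing.

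The comparison, its members and the gene lists were chosen with earlier results of these data known. Genes were named if they had an adjusted p under 0.01, were among the 10 largest changes each way in the 6-library fit with groups apart and a mean of at least 1 CPM, were Hdac1, Hdac2 or their binding scaffolds, were list members with an unadjusted p under 0.01 (or the 2 most expressed), or neighboured a called gene. The 10 largest changes were drawn only from genes with an adjusted p under 0.01 and a change beyond 2-fold in the 6-library fit. List members called with 17 libraries alone, Dmrt1, Gm6139, Rps2-ps13, Zscan4-ps2 and the tRNA synthetases were named after their values were seen. Of the tested symbols, 18497 (98.4%) matched GENCODE M21.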

Additional observations from a re-analysis of the deposited data

Results flagged for a closer look

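For 10 pairs of gene and mutant line, the OHT effect differed between HDAC1-WT and the mutant line in the edgeR interaction test. In HDAC1-E63R minus HDAC1-WT, the log2 differences were -1.74 for Bcan, -1.08 for Ddx19b, 2.36 for Mest, 1.79 for S100a6 and 7.81 for Gm12794. In HDAC1-Y48E minus HDAC1-WT, they were -1.14 for Chga, -1.17 for Ddx19b, 2.03 for Mest, 2.58 for S100a6 and 7.6 for Gm12794. The Gm12794 values are fitted against 0 counts in all 3 OHT-treated HDAC1-WT libraries and are no measure of size. Untreated levels of Mest, Ddx19b, S100a6, Bcan and Gm12794 also differed between the lines, and the part of these levels in the differences was not tested.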

How the results depend on the processing

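With edgeR and 18 libraries, 7 DEGs were higher and 3 lower. Relative log expression factors gave 7 and 3, no filter 30 and 20, the 6 HDAC1-WT libraries 15 and 7, DESeq2 25 and 10, an adjusted p limit of 0.05 19 and 7, and glmTreat against 2-fold 0 and 0. Leaving out single libraries gave 1 to 42 higher and 2 to 21 lower, the highest without HDAC1-E63R untreated replicate 3. In that fit, leaving out each HDAC1-WT library gave 21 to 43 higher and 9 to 19 lower DEGs. With the 6 libraries, 66 genes were higher and 51 lower at an adjusted p under 0.01, and 7 to 72 and 11 to 85 with one left out. The Hdac2 log2 fold change passed 0.01 without a filter (-0.66), with 6 libraries (-0.66), with DESeq2 (-0.66) and without HDAC1-WT untreated replicate 2 or HDAC1-E63R untreated replicate 2 or 3, passed only the looser limit at 0.05 (-0.66), and ran from -0.75 to -0.60 with single libraries left out. Hdac1 passed 0.01 under none of the alternatives run. Of the 10 DEGs, 2 to 5 differed from HDAC1-E63R and 4 to 5 from HDAC1-Y48E with single libraries left out. With the replicate number as a block, 4 DEGs were higher and 3 lower, and with the block in the 6-library fit 23 and 6 (Hdac2 -0.65, past 0.01). Whether the numbers pair the libraries is not stated in the sources used here. Among 13 genes not called in any fit (adjusted p of 0.856 or more where the sign turned), the log2 fold change changed sign with single libraries left out: Mta3 (-0.055 to 0.057), Rcor1 (-0.096 to 0.085), Rcor3 (-0.13 to 0.23), Trerf1 (-0.068 to 0.25), Mier2 (-0.046 to 0.054), Rere (-0.043 to 0.0036), Cdyl2 (-0.025 to 0.17), Bst2 (-0.019 to 0.17), Gm12790 (-0.78 to 0.65), Cep41 (-0.25 to 0.21), S100a16 (-0.49 to 0.012), Cd177 (-1.16 to 0.89) and Mepce (-0.11 to 0.028). Of these, Gm12790 (0.0071) and Cd177 (-0.057) also changed sign with the replicate block. No other result changed direction under the alternatives run. Apart from the changed sets of genes and samples, the cause of these shifts was not tested. With 3 libraries per group, genes under 1 CPM were read from few counts.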
